A study of Arabidopsis thaliana with 18 samples.

Results

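The genes of chlorophyll and carotenoid synthesis were followed through maps of whole RNA molecules in Arabidopsis seedlings. They are 37 of the 27444 coding genes on chromosomes 1 to 5, listed by locus as enzymes and regulators of tetrapyrrole, chlorophyll and carotenoid synthesis, and not by any measured value. Of the 37 members, 35 had at least 1 transcript in at least 1 of the 6 lists of transcripts, and 33 had transcripts in all 6. BCH2 (AT5G52570), a beta-carotene hydroxylase, and LUT5 (AT1G31800), a cytochrome P450 that hydroxylates beta rings, had none in any list.

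TIF-seq reads the 5′ and the 3′ end of the same capped and polyadenylated molecule, so each read pair joins a start to an end. The 6 lists come from seedlings aged 14 days: hen2-2 and Col-0 wild type after 3 h at 4 °C, and hen2-2, spt16-1, ssrp1-2 and wild type kept at 22 °C. hen2-2 is mutated in HEN2, an RNA helicase that serves the nuclear exosome, and spt16-1 and ssrp1-2 carry mutations in the 2 subunits of FACT, a histone chaperone that travels with RNA polymerase II. Each list pools 2 libraries, so no spread between seedlings or libraries can be given. All intervals below are 95% intervals of the counts (Poisson for levels, Clopper-Pearson for shares, exact conditional binomial for ratios) and cover counting error only.

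Chlorophyll and heme share a pathway in the plastid that begins with glutamate bound to its tRNA and runs through 5-aminolevulinic acid to protoporphyrin IX. There the pathway forks: magnesium chelatase leads to chlorophyll and ferrochelatase leads to heme. Carotenoids are built in the same organelle from geranylgeranyl diphosphate, which also supplies the tail of chlorophyll. In angiosperms the step that makes chlorophyllide needs light and is carried out by the protochlorophyllide oxidoreductases, the POR enzymes.

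The deposited unit is the TIF-cluster, a set of read pairs whose starts and ends lie close together, with its count of read pairs. The lists held 410655 (hen2-2 at 4 °C), 690139 (wild type at 4 °C), 794299 (hen2-2 at 22 °C), 924907 (spt16-1), 705245 (ssrp1-2) and 843121 (wild type at 22 °C) read pairs. Levels are given as read pairs per 1000000 read pairs of the list (RPM). A read pair stands for 1 molecule whatever its length, but how well long molecules were recovered was not tested. The cold genes CBF2 and CBF3 had 655 and 324 read pairs in hen2-2 at 4 °C and 1039 and 410 in wild type at 4 °C, and none in the 4 lists at 22 °C. HEN2 had no TIF-cluster in either hen2-2 list and SSRP1 had none in ssrp1-2, against 4 and 5 read pairs in wild type at 22 °C, whereas SPT16 had 31 read pairs in spt16-1 and 30 in wild type. HEN2 also had none in wild type at 4 °C, SPT16 none in both lists at 4 °C and SSRP1 none in hen2-2 at 4 °C. The leaf genes RBCS1A, LHCB1.3 and RCA lay between 1146 and 9414 RPM in every list, and the root genes PHT1;1 and TIP2;3 between 0 and 122 RPM. In pooled seedlings, fewer green cells and less RNA per green cell cannot be told apart.

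The members made up 1.03% (hen2-2 at 4 °C), 0.923% (wild type at 4 °C), 1.15% (hen2-2 at 22 °C), 1.17% (spt16-1), 1.07% (ssrp1-2) and 1.19% (wild type at 22 °C) of all read pairs. CHLP (AT1G74470), the geranylgeranyl reductase that makes the phytyl tail of chlorophyll, alone held 37.8% of their read pairs over the 6 lists. PORB (AT4G27440) and CHLH (AT5G13630), the large subunit of magnesium chelatase, followed with 9.08% and 9%. Then came CHLI1, PORC, CAO, ZEP, HEMA1, CHLM and CHLI2, each with between 2.02% and 5.30%. PSY (AT5G17230), phytoene synthase, which commits carbon to carotenoids, had between 9.93 and 21.7 RPM.

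**Figure D1:**
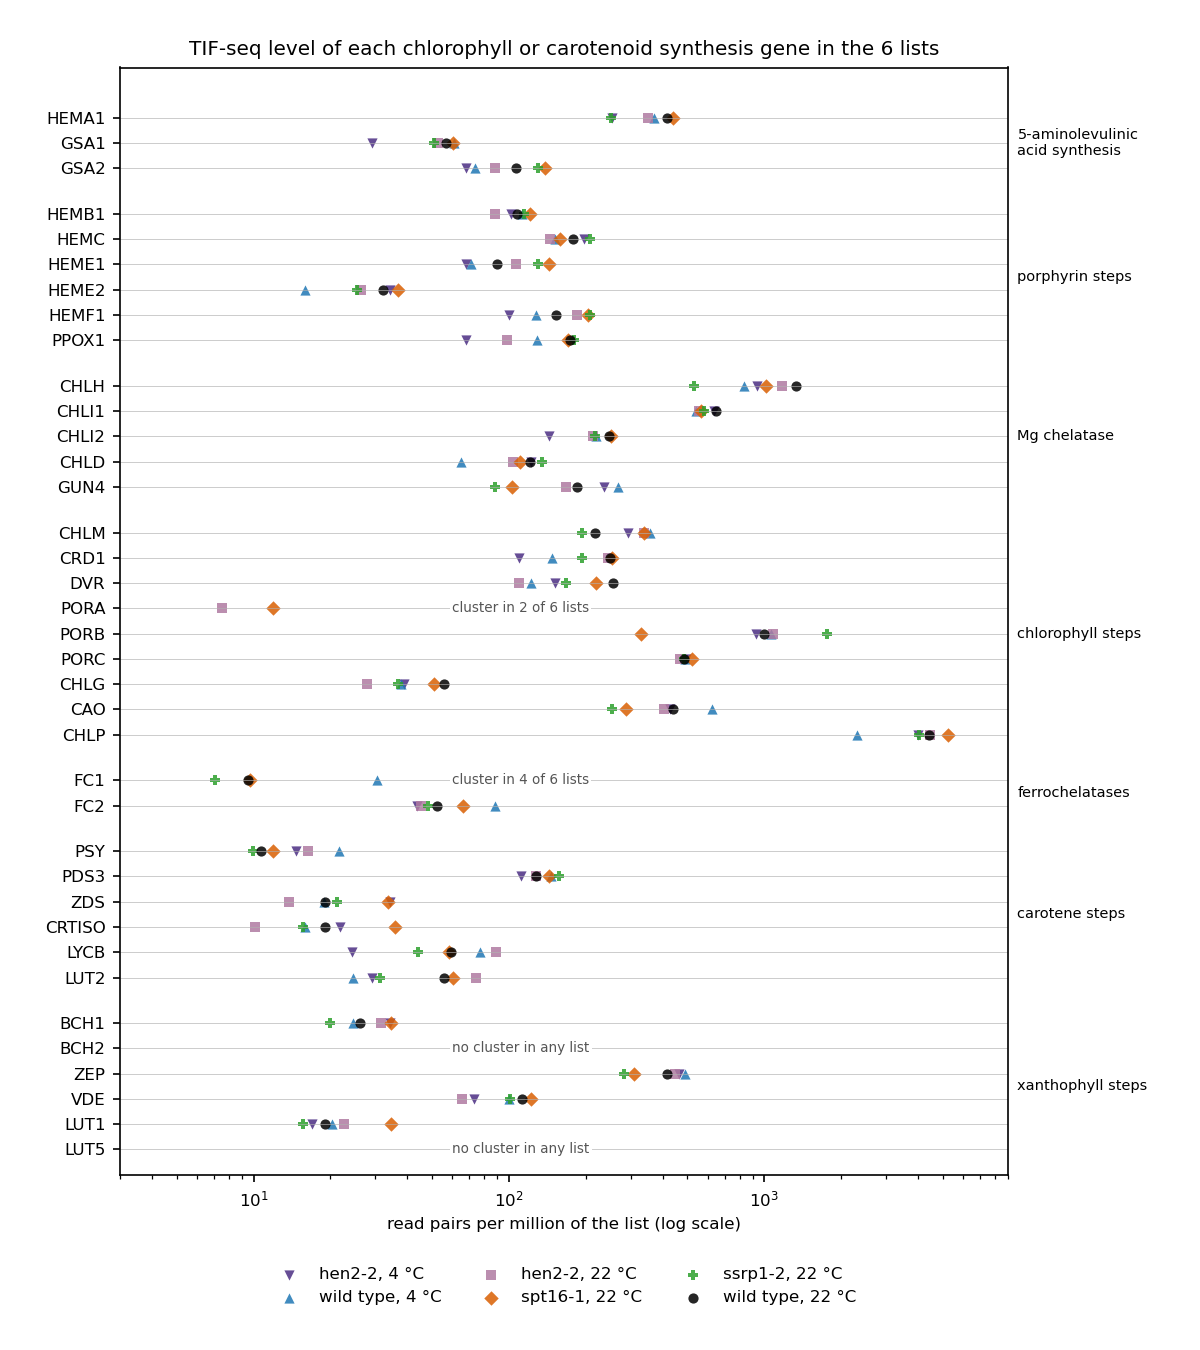
Level of each of the 37 members in the 6 lists, in RPM on a log axis, grouped by pathway step; each symbol is 1 pooled list. CHLP lies between 2302 and 5237 RPM in every list, PORB spreads from 330 to 1767, and BCH2 and LUT5 have no TIF-cluster.

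A member was compared between 2 lists when it had a TIF-cluster in both and at least 20 read pairs in the 2 together, and it was called when its level differed by at least 2-fold. With pooled libraries there is no test, and the share of all coding genes called the same way is given beside each count. In wild type, 4 °C over 22 °C, 2 of 34 members compared were called higher and 3 lower, against 14.1% of all 6688 genes higher and 11.6% lower. In hen2-2, 4 °C over 22 °C, 1 of 31 was called higher and 3 lower, against 9.38% and 17.5% of all genes. For hen2-2 over wild type at 22 °C, 0 of 33 were called higher and 2 lower, against 12.2% and 9.20%. At 4 °C, hen2-2 over wild type gave 1 of 33 higher and 3 lower, against 8.15% and 16.8%. After centring on the median gene, this comparison had 3 members higher and 1 lower, against 11.2% and 12.8% of all genes. Cold wild type then had 1 higher and 4 lower, against 12.9% and 12.5%. For spt16-1 over wild type, 0 of 33 were called higher and 1 lower, against 14.0% and 8.05%. For ssrp1-2 over wild type, 0 of 32 were called higher and 2 lower, against 12.3% and 11.0%. With these settings the share of members called was below that of all genes in each comparison and direction. For lower calls this depended on the settings. Members carried more read pairs, with a median of 189 in the 2 wild-type lists together against 64 over all genes compared. With at least 50 read pairs required, 7.41% of members were called lower in hen2-2 over wild type at 22 °C against 6.06% of all genes, and 12% against 11.9% at 4 °C. In cold wild type, 15.6% of members against 11.3% of all genes were called lower on whole coding sequences alone, and 12.9% against 11.3% with 1 minimum per list size.

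The median log2 ratio of the members was -0.17 in the cold in wild type and -0.16 in hen2-2, against 0.06 and -0.19 over all genes. It was -0.14 for hen2-2 over wild type at both temperatures, against 0.09 over all genes at 22 °C and -0.19 at 4 °C. For spt16-1 and ssrp1-2 it was 0.10 and -0.17, against 0.11 and 0.08 over all genes. The wild-type list at 22 °C is the reference of 4 comparisons, so these are not independent of each other.

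**Figure D2:**
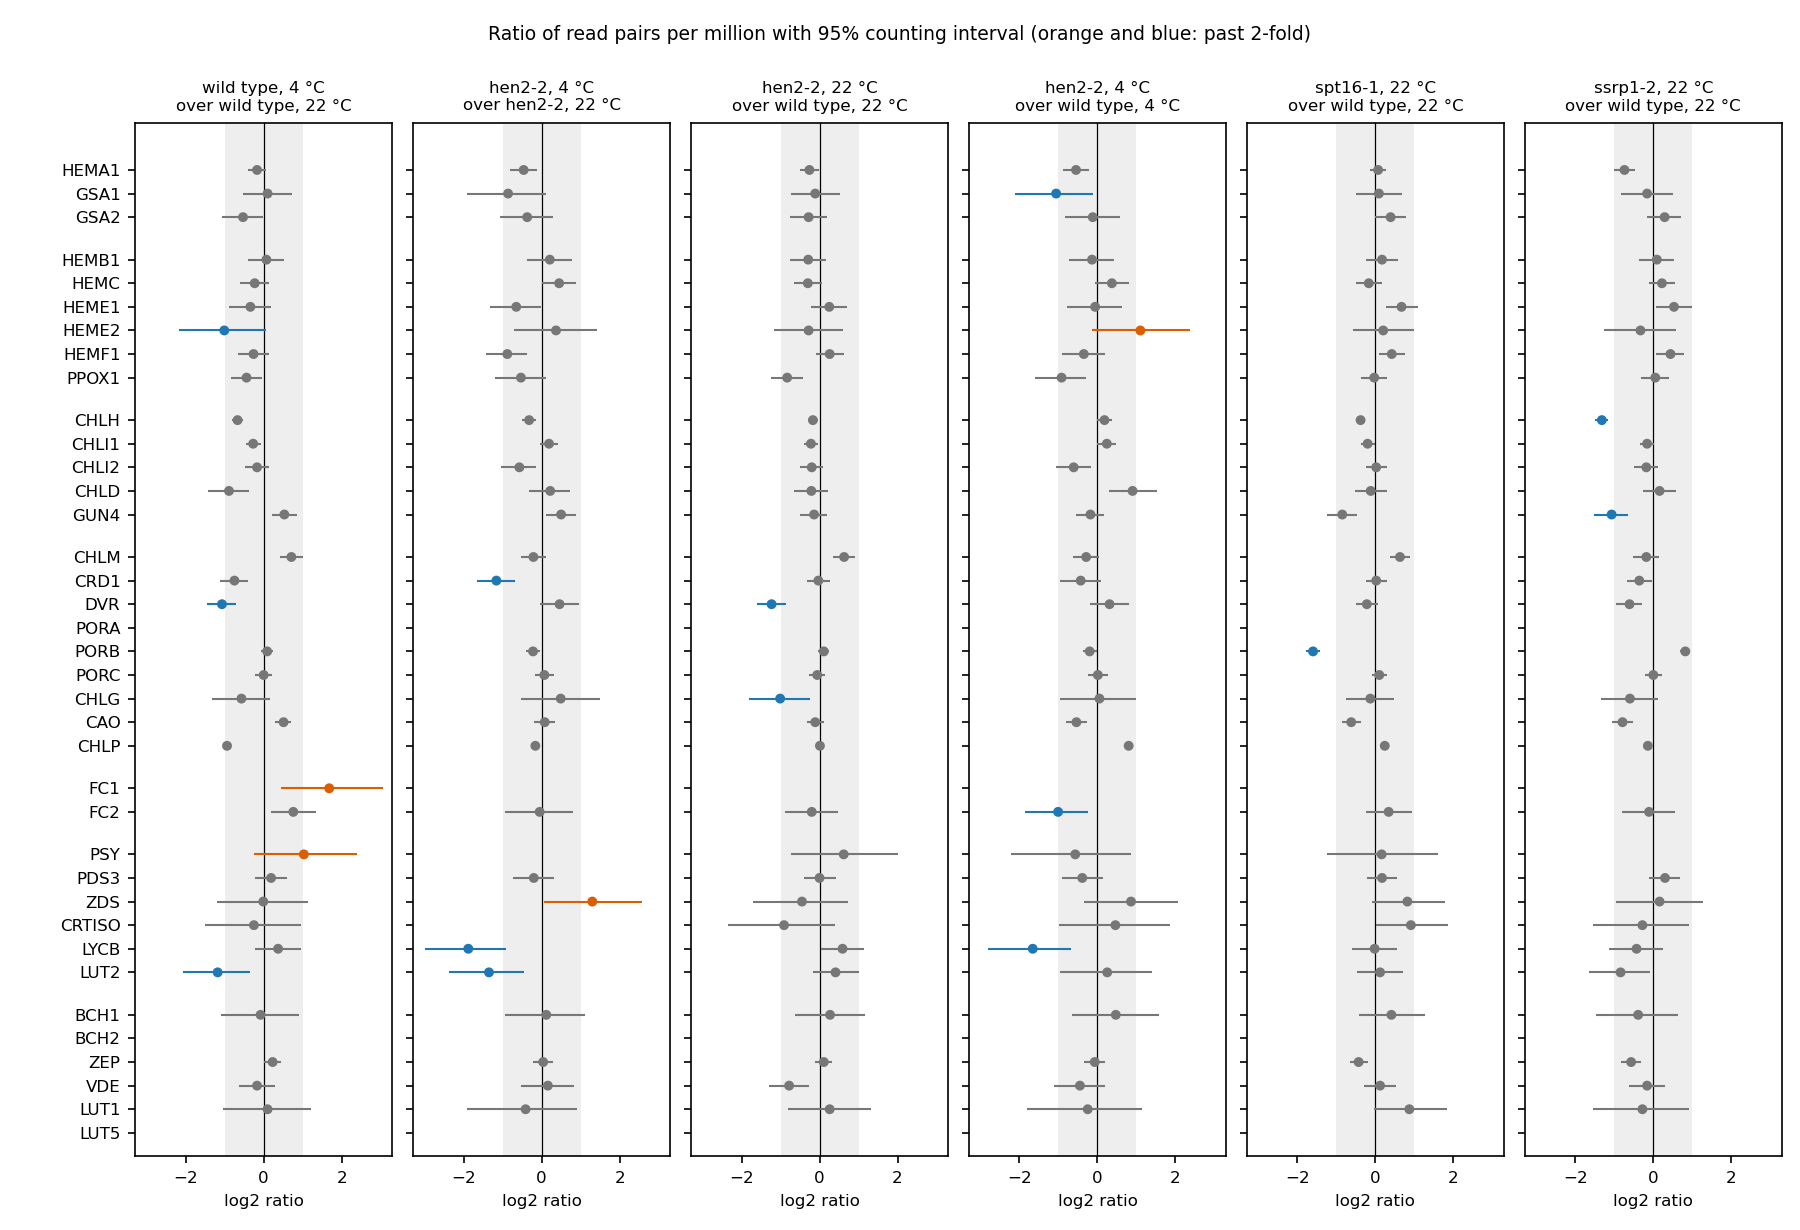
Log2 ratio of RPM for each member compared, in the 6 comparisons, with the 95% counting interval as a bar and ratios within 2-fold on grey ground. PORB in spt16-1 and CHLH in ssrp1-2 are the called members with the narrowest intervals, at -1.60 and -1.32, and the orange points (FC1, PSY, ZDS and HEME2, called higher) rest on 8 to 21 read pairs in each list.

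At the entry to the pathway, HEMA1 (AT1G58290), the glutamyl-tRNA reductase that sets the supply of 5-aminolevulinic acid, had 253 RPM in hen2-2 at 4 °C, 371 in wild type at 4 °C, 349 in hen2-2 at 22 °C, 438 in spt16-1, 250 in ssrp1-2 and 416 in wild type at 22 °C. It was low in ssrp1-2 and in cold hen2-2, but no comparison reached 2-fold (ssrp1-2 over wild type log2 -0.74, -1.01 to -0.47). GSA1 (AT5G63570) and GSA2 (AT3G48730), which make 5-aminolevulinic acid from glutamate semialdehyde, share a step. GSA1 had 29.2 RPM in hen2-2 at 4 °C, 60.9 in wild type at 4 °C, 52.9 in hen2-2 at 22 °C, 60.5 in spt16-1, 51.0 in ssrp1-2 and 56.9 in wild type at 22 °C. Cold hen2-2 was the low list, and it was called lower than cold wild type on 12 read pairs against 42 (log2 -1.06, -2.12 to -0.11). GSA2 had 68.2 RPM in hen2-2 at 4 °C, 73.9 in wild type at 4 °C, 88.1 in hen2-2 at 22 °C, 139 in spt16-1, 130 in ssrp1-2 and 107 in wild type at 22 °C, all within 2-fold in the 6 comparisons.

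Of the 6 genes from 5-aminolevulinic acid to protoporphyrin IX, 5 stayed within 2-fold in every comparison. HEMB1 (AT1G69740), the dehydratase, lay between 88.1 and 121 RPM over the 6 lists, and HEMC (AT5G08280), porphobilinogen deaminase, between 145 and 207. HEME1 (AT3G14930), a uroporphyrinogen decarboxylase, lay between 68.2 and 144 RPM. HEMF1 (AT1G03475), coproporphyrinogen oxidase, had 99.8 and 128 RPM at 4 °C (hen2-2 and wild type) and between 153 and 207 in the lists at 22 °C, without reaching 2-fold in any comparison. PPOX1 (AT4G01690), protoporphyrinogen oxidase, had 68.2 RPM in hen2-2 against 129 in wild type at 4 °C, and 98.2 against 174 at 22 °C. Its intervals lay below 0 at both temperatures (log2 -0.92, -1.59 to -0.29, and -0.83, -1.24 to -0.42). HEME2 (AT2G40490), annotated with the same step as HEME1, had 34.1 RPM in hen2-2 at 4 °C, 15.9 in wild type at 4 °C, 26.4 in hen2-2 at 22 °C, 36.8 in spt16-1, 25.5 in ssrp1-2 and 32.0 in wild type at 22 °C. It was called lower in wild type in the cold (11 read pairs against 27) and higher in hen2-2 over wild type at 4 °C (14 against 11), and both intervals included 0.

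Magnesium chelatase is built of the subunits CHLH, CHLI and CHLD and is stimulated by GUN4, which binds its substrate and product. CHLI1 (AT4G18480), the main ATPase subunit, had 633 RPM in hen2-2 at 4 °C, 538 in wild type at 4 °C, 556 in hen2-2 at 22 °C, 564 in spt16-1, 579 in ssrp1-2 and 648 in wild type at 22 °C. Its second copy CHLI2 (AT5G45930) had 144 RPM in hen2-2 at 4 °C, 219 in wild type at 4 °C, 214 in hen2-2 at 22 °C, 251 in spt16-1, 218 in ssrp1-2 and 247 in wild type at 22 °C. Both stayed within 2-fold in all 6 comparisons, CHLI1 above CHLI2 in every list. CHLD (AT1G08520), the third subunit, had 122 RPM in hen2-2 at 4 °C, 65.2 in wild type at 4 °C, 104 in hen2-2 at 22 °C, 111 in spt16-1, 135 in ssrp1-2 and 121 in wild type at 22 °C. Cold wild type was the lowest list, just inside 2-fold (log2 -0.89, -1.43 to -0.37, over 22 °C).

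GUN4 (AT3G59400) had 236 RPM in hen2-2 at 4 °C, 268 in wild type at 4 °C, 167 in hen2-2 at 22 °C, 103 in spt16-1, 87.9 in ssrp1-2 and 185 in wild type at 22 °C. The cold lists were the 2 highest and the FACT mutants the 2 lowest. It was called lower in ssrp1-2 (log2 -1.07, -1.52 to -0.64) and fell short of 2-fold in spt16-1 (-0.85, -1.23 to -0.47), and its cold ratios were 0.53 (0.22 to 0.85) in wild type and 0.50 (0.10 to 0.88) in hen2-2.

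CHLH had 940 RPM in hen2-2 at 4 °C, 832 in wild type at 4 °C, 1177 in hen2-2 at 22 °C, 1017 in spt16-1, 530 in ssrp1-2 and 1326 in wild type at 22 °C. ssrp1-2 was lowest and was called lower than wild type (log2 -1.32, -1.49 to -1.15), while spt16-1 stayed within 2-fold (-0.38, -0.51 to -0.26). In every list but ssrp1-2, most CHLH read pairs did not have their 5′ end upstream of the coding sequence. The most used internal start, at chr5:4387823, lies near the stop codon side of the coding span, which ends at 4387567. The study describes an artefactual bias of TIF-seq starts towards the 3′ ends of genes and filtered starts against it. How much of that bias remains in these internal 5′ ends was not tested. In wild type at 22 °C, 361 read pairs started upstream of the coding sequence and 757 inside it, which is 67.7% (64.9 to 70.4) internal, and all 1118 ended 39 to 244 nt after the stop codon. The internal share was 55.4% in hen2-2 at 4 °C, 58.9% in wild type at 4 °C, 55.1% in hen2-2 at 22 °C, 55.7% in spt16-1 and 46.3% (41.1 to 51.5) in ssrp1-2, below the wild-type value at 22 °C in every case.

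The shortfall of CHLH in ssrp1-2 was uneven along the gene. Molecules that start upstream of the coding sequence had 285 RPM (247 to 327) in ssrp1-2 and 428 (385 to 475) in wild type, a log2 ratio of -0.59 (-0.84 to -0.33). Those that start inside had 245 (210 to 285) in ssrp1-2 and 898 (835 to 964) in wild type, a log2 ratio of -1.87 (-2.12 to -1.63). Counted on whole coding sequences alone, CHLH was not called. In spt16-1 the upstream molecules had 451 RPM and the internal ones 567, with log2 ratios of 0.07 (-0.13 to 0.28) and -0.66 (-0.83 to -0.50) over wild type. HEMA1 had the same kind of split in ssrp1-2, with 13 internal read pairs against 67 in wild type (log2 -2.11, -3.09 to -1.24) and 163 upstream ones against 284 (-0.54, -0.83 to -0.26). CHLP and PORB had no such split in ssrp1-2, with internal log2 ratios of 0.00 (-0.17 to 0.18) and 0.69 (0.18 to 1.21) and upstream ones of -0.17 (-0.25 to -0.09) and 0.83 (0.70 to 0.96). CHLI1 had one, with 3 internal read pairs in ssrp1-2 against 46 in wild type. In RPM, its internal starts had 4.25 (0.877 to 12.4) against 54.6 (39.9 to 72.8), and its upstream starts 574 against 593. In spt16-1, HEMA1 was split too, at -1.07 (-1.70 to -0.46) internal and 0.25 (0.02 to 0.48) upstream. CHLP was not split there, at 0.17 (0.01 to 0.33) and 0.26 (0.19 to 0.32), and PORB had the reverse, as given below. The CHLH split was not confined to the FACT mutants. Over wild type at 22 °C, upstream and internal log2 ratios were 0.30 and -0.47 in hen2-2 at 22 °C. They were -0.32 and -0.87 in wild type at 4 °C. In hen2-2, 4 °C over 22 °C, both kinds were alike (-0.34 and -0.32). Over all coding genes, TIF-clusters of the internal start class held 7.85% of read pairs in ssrp1-2 and 8.68% in spt16-1. They held 8.68% in hen2-2 and 10.7% in wild type at 22 °C, and 10% in hen2-2 and 8.61% in wild type at 4 °C. The part of this general difference in the CHLH value was not tested.

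The most used starts of CHLH and PORB, whose shares differed between lists, are shown as 15 bases before and 15 from the start, which is in capitals (TAIR10 sequence as in RefSeq TAIR10.1). The CHLH stretches are chr5:4392207-4392236 (5′-UTR) and chr5:4387809-4387838, on the minus strand. The PORB stretches are chr4:13725580-13725609 (5′-UTR) and chr4:13726186-13726215, on the plus strand. Both internal starts lie in coding exons. Positions here and below are outer limits of TIF-clusters as deposited and may be off by 1 nt.
CHLH promoter start: tagttccttggtccgAagcgtttaccgatg
CHLH internal start: tagagaagagactgtCcaacactgtgggat
PORB promoter start: tttcgcaaaatatccActacgatagttttc
PORB internal start: cgtgagacagtttgtTgataatttcaggag

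The 3 POR enzymes reduce protochlorophyllide, and PORB split the FACT mutants. PORB had 928 RPM in hen2-2 at 4 °C, 1062 in wild type at 4 °C, 1081 in hen2-2 at 22 °C, 330 in spt16-1, 1767 in ssrp1-2 and 1000 in wild type at 22 °C. The 2 FACT mutants lay on opposite sides of the other 4 lists, which kept between 928 and 1081. PORB was called lower in spt16-1 over wild type (log2 -1.60, -1.79 to -1.41), where only 3.03% of all genes compared had a lower ratio. In ssrp1-2 its log2 ratio over wild type was 0.82 (0.69 to 0.95), short of 2-fold. Set against each other, spt16-1 and ssrp1-2 had 305 and 1246 PORB read pairs, a log2 ratio of -2.42 (-2.61 to -2.24).

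In spt16-1 the molecules from the PORB promoter were lower and the internal ones were not. The promoter ones had 218 RPM (189 to 251) in spt16-1, 1658 (1564 to 1755) in ssrp1-2 and 932 (868 to 1000) in wild type, so that spt16-1 over wild type was -2.09 (-2.32 to -1.87) on the log2 scale. Molecules that start inside the coding sequence had 111 (90.9 to 135) in spt16-1, 109 (86.2 to 136) in ssrp1-2 and 67.6 (51.2 to 87.6) in wild type, with log2 ratios of 0.72 (0.24 to 1.21) and 0.69 (0.18 to 1.21). The most used internal group, 519 to 563 nt into the coding span, held 52 read pairs in spt16-1, 29 in ssrp1-2 and 33 in wild type. The share of the promoter start group was 66.2% (60.6 to 71.5) in spt16-1 and between 92.5% and 95.5% in the other 5 lists.

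**Figure D3:**
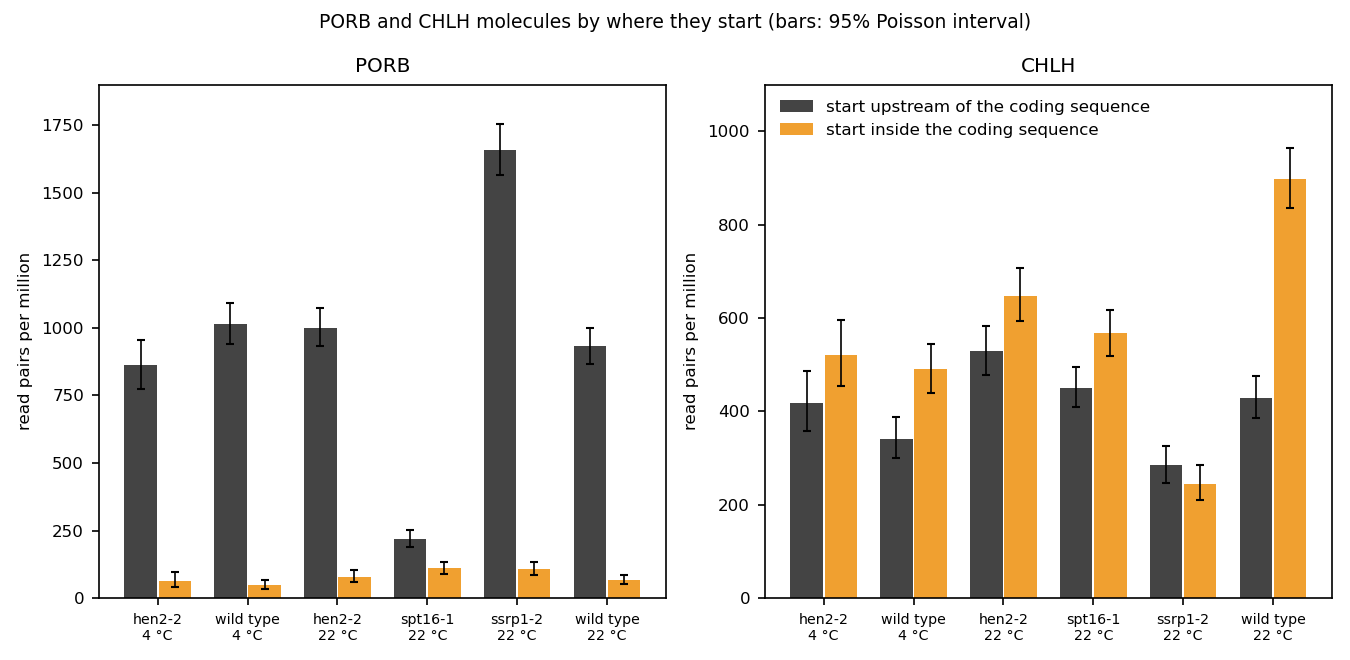
Level in RPM of PORB and CHLH molecules that start upstream of the coding sequence (dark) or inside it (orange) in the 6 lists, with 95% Poisson intervals. PORB in spt16-1 drops to 218 at the promoter, against 932 in wild type at 22 °C, its internal starts have 111 against 67.6, and CHLH has 245 RPM of internal starts in ssrp1-2 against 898 in wild type.

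PORC (AT1G03630) had 492 RPM in hen2-2 at 4 °C, 487 in wild type at 4 °C, 467 in hen2-2 at 22 °C, 522 in spt16-1, 485 in ssrp1-2 and 486 in wild type at 22 °C. It had the narrowest range of all members, with a highest level 1.12 times the lowest. PORA (AT5G54190), the isoform of dark-grown seedlings, had 6 read pairs in hen2-2 at 22 °C and 11 in spt16-1 and no TIF-cluster in the other 4 lists, where fewer than 3 alike read pairs would not be listed. PORA and PORB are close relatives, and reads that fit both equally well would have been dropped by the authors' filter for unique alignments.

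CHLM (AT4G25080), the methyltransferase after magnesium chelatase, had 292 RPM in hen2-2 at 4 °C, 358 in wild type at 4 °C, 337 in hen2-2 at 22 °C, 338 in spt16-1, 193 in ssrp1-2 and 218 in wild type at 22 °C. No comparison reached 2-fold, and the cold ratio in wild type was 0.71 (0.43 to 1.00). Nearly all its 3′ ends fell into 2 separate groups, 110 to 209 nt and 411 to 493 nt after the stop codon, both in the annotated 3′-UTR. Of the 29 members with at least 20 read pairs in both lists, CHLM alone changed its main 3′ end by 20 percentage points or more in hen2-2 over wild type at 22 °C, against 5.53% of all genes.

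The distal CHLM end was used by 64 of 120 read pairs in hen2-2 at 4 °C (53.3%, 44.0 to 62.5), 131 of 247 in wild type at 4 °C (53.0%, 46.6 to 59.4), 185 of 268 in hen2-2 at 22 °C (69.0%, 63.1 to 74.5), 171 of 313 in spt16-1 (54.6%, 48.9 to 60.2), 75 of 136 in ssrp1-2 (55.1%, 46.4 to 63.7) and 71 of 184 in wild type at 22 °C (38.6%, 31.5 to 46.0). Wild type at 22 °C was the only list with more proximal than distal ends. The gain was 30.4 points in hen2-2, and 14.4, 16.0 and 16.6 points in cold wild type, spt16-1 and ssrp1-2, below the 20 points called. In cold hen2-2 the share was 15.7 points lower than at 22 °C. The proximal end gathered 83 read pairs in hen2-2 and 113 in wild type at 22 °C, while the distal end gathered 185 and 71.

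The 30 bases up to the most used position of each CHLM group are shown with the last transcribed base in capitals, since the use of these 2 ends differed between lists (proximal chr4:12878242-12878271, distal chr4:12878579-12878608, plus strand). Neither holds AATAAA, the canonical signal for polyadenylation. That hexamer, searched on the transcribed strand alone in the 40 bases before the most used 3′ end, was found at 0 of 35 members and at 11.5% of 14360 coding genes.
CHLM proximal end: gccgaatacatgcatgtaccaaatgtactA
CHLM distal end: ctgtgtccaaaaacatgtctatacttttcT

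**Figure D4:**
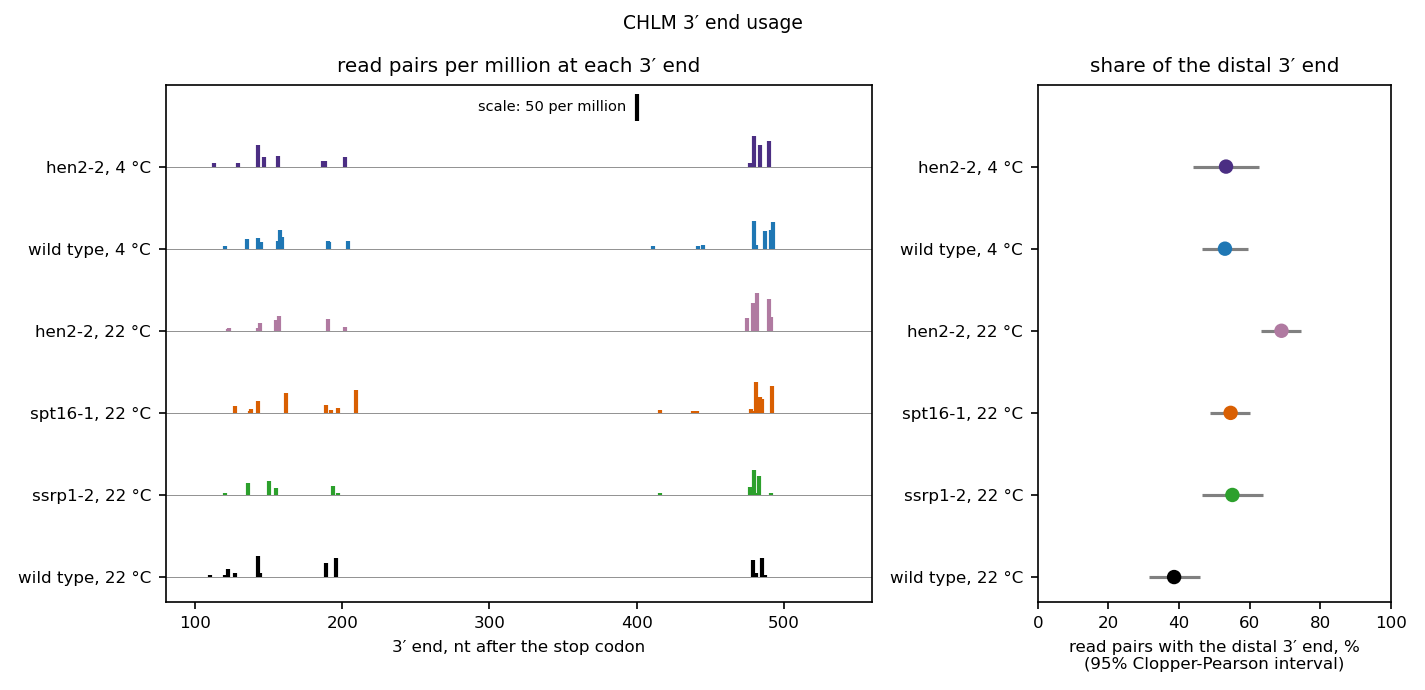
Left, CHLM level in RPM at each 3′ end by distance from the stop codon in the 6 lists; right, the percentage of CHLM read pairs with a distal 3′ end and its 95% Clopper-Pearson interval. The distal share is 69.0% in hen2-2 at 22 °C and 38.6% in wild type at 22 °C, with the other 4 lists between 53.0% and 55.1%.

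Of the later chlorophyll enzymes, CRD1 (AT3G56940), a subunit of the cyclase that closes the fifth ring, had 110 RPM in hen2-2 and 148 in wild type at 4 °C, and 244 in hen2-2, 253 in spt16-1, 194 in ssrp1-2 and 249 in wild type at 22 °C. Both cold lists were below all 4 lists at 22 °C, and the cold ratio was -1.16 (-1.66 to -0.68) in hen2-2, a call, and -0.75 (-1.11 to -0.40) in wild type. DVR (AT5G18660), which reduces the 8-vinyl group, had 151 RPM in hen2-2 and 122 in wild type at 4 °C, and 110 in hen2-2, 219 in spt16-1, 167 in ssrp1-2 and 256 in wild type at 22 °C. It was called lower in cold wild type (log2 -1.07, -1.46 to -0.70) and in hen2-2 at 22 °C (-1.23, -1.60 to -0.86), and hen2-2 over wild type at 4 °C was 0.31 (-0.19 to 0.80). Nearly all of its molecules spanned the coding sequence. CHLG (AT3G51820), chlorophyll synthase, had 39.0 RPM in hen2-2 at 4 °C, 37.7 in wild type at 4 °C, 27.7 in hen2-2 at 22 °C, 50.8 in spt16-1, 36.9 in ssrp1-2 and 55.7 in wild type at 22 °C. It was called lower in hen2-2 at 22 °C on 22 read pairs against 47 in wild type (log2 -1.01, -1.81 to -0.25).

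CAO (AT1G44446), the oxygenase that makes chlorophyll b, had 429 RPM in hen2-2 at 4 °C, 623 in wild type at 4 °C, 405 in hen2-2 at 22 °C, 287 in spt16-1, 254 in ssrp1-2 and 439 in wild type at 22 °C. It was highest in cold wild type and lowest in both FACT mutants, with log2 ratios over wild type of -0.62 (-0.85 to -0.38) in spt16-1 and -0.79 (-1.06 to -0.53) in ssrp1-2, within 2-fold. CHLP had 3998 RPM in hen2-2 at 4 °C, 2302 in wild type at 4 °C, 4471 in hen2-2 at 22 °C, 5237 in spt16-1, 4020 in ssrp1-2 and 4429 in wild type at 22 °C. Cold wild type was the low list, at a log2 ratio of -0.94 (-1.03 to -0.86) just inside 2-fold, while the cold ratio in hen2-2 was -0.16 (-0.25 to -0.08). In wild type the difference lay at the upstream starts of CHLP, with 1682 RPM in the cold and 3735 at 22 °C (log2 -1.15, -1.25 to -1.05). Its internal starts had 620 and 694 (-0.16, -0.35 to 0.02). In hen2-2 the 2 kinds of start parted in the cold as well, at -0.35 (-0.45 to -0.25) upstream and 0.56 (0.37 to 0.74) internal.

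The ferrochelatases open the heme branch. FC1 (AT5G26030) had 21 read pairs in wild type at 4 °C, 9 in spt16-1, 5 in ssrp1-2 and 8 in wild type at 22 °C, and no TIF-cluster in hen2-2 at either temperature. It was called higher in cold wild type (log2 1.68, 0.45 to 3.07). FC2 (AT2G30390), the isoform of green tissue, had 43.8 RPM in hen2-2 and 88.4 in wild type at 4 °C, and 45.3 in hen2-2, 66.0 in spt16-1, 48.2 in ssrp1-2 and 52.2 in wild type at 22 °C. It was highest in cold wild type, with a cold ratio of 0.76 (0.18 to 1.35), and was called lower in hen2-2 over wild type at 4 °C (log2 -1.01, -1.86 to -0.23).

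Among the carotene genes, LUT2 (AT5G57030), the lycopene epsilon-cyclase that opens the lutein branch, was called lower in the cold in both genotypes. It had 29.2 RPM in hen2-2 and 24.6 in wild type at 4 °C, against 74.3 in hen2-2, 60.5 in spt16-1, 31.2 in ssrp1-2 and 55.7 in wild type at 22 °C. The cold log2 ratio was -1.35 (-2.38 to -0.44) in hen2-2 and -1.18 (-2.07 to -0.35) in wild type, on 12 and 17 read pairs in the cold. Counting only TIF-clusters of at least 5 read pairs, these ratios were -2.43 and -2.46. LYCB (AT3G10230), the lycopene beta-cyclase, had 24.4 RPM in hen2-2 at 4 °C, 76.8 in wild type at 4 °C, 89.4 in hen2-2 at 22 °C, 58.4 in spt16-1, 44.0 in ssrp1-2 and 59.3 in wild type at 22 °C. It was called lower in cold hen2-2, on 10 read pairs, over hen2-2 at 22 °C (log2 -1.88, -3.00 to -0.91) and over cold wild type (-1.66, -2.80 to -0.67). A second LYCB 3′ end, 250 to 263 nt after the stop codon, was used by 20 of 71 read pairs in hen2-2 at 22 °C and 8 of 50 in wild type at 22 °C, and by none in the cold lists.

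PSY had 6 read pairs in hen2-2 at 4 °C, 15 in wild type at 4 °C, 13 in hen2-2 at 22 °C, 11 in spt16-1, 7 in ssrp1-2 and 9 in wild type at 22 °C, and was called higher in cold wild type. ZDS (AT3G04870), zeta-carotene desaturase, had 14 read pairs in hen2-2 at 4 °C, 13 in wild type at 4 °C, 11 in hen2-2 at 22 °C, 31 in spt16-1, 15 in ssrp1-2 and 16 in wild type at 22 °C, and was called higher in cold hen2-2. The interval of PSY included 0 and that of ZDS reached down to 0.05. PDS3 (AT4G14210), phytoene desaturase, lay between 112 and 157 RPM and CRTISO (AT1G06820), the carotenoid isomerase, between 10.1 and 35.7.

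No xanthophyll gene was called in any comparison. ZEP (AT5G67030), which epoxidises zeaxanthin, had 463 RPM in hen2-2 at 4 °C, 487 in wild type at 4 °C, 449 in hen2-2 at 22 °C, 309 in spt16-1, 281 in ssrp1-2 and 416 in wild type at 22 °C, so the FACT mutants were again the 2 lowest lists (log2 over wild type -0.43, -0.66 to -0.20, and -0.57, -0.83 to -0.31). VDE (AT1G08550), which reverses that step in strong light, had 73.1 RPM in hen2-2 at 4 °C, 100 in wild type at 4 °C, 65.5 in hen2-2 at 22 °C, 122 in spt16-1, 101 in ssrp1-2 and 113 in wild type at 22 °C. BCH1 (AT4G25700), a beta-ring hydroxylase, and LUT1 (AT3G53130), the epsilon-ring hydroxylase, lay between 19.9 and 34.6 and between 15.6 and 34.6.

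The members had more TIF-clusters per gene than all coding genes in mean and median, and a few members raised the mean further. Members also carried more read pairs, with a median of 189 in the 2 wild-type lists together against 64 over all genes compared. The part of this depth in the isoform counts was not tested. There were between 9.24 (hen2-2 at 4 °C) and 13.8 (spt16-1 and wild type at 22 °C) TIF-clusters per member on average, against 3.54 to 4.33 per gene over all coding genes. In wild type at 22 °C, CHLH, CHLP and HEMA1 held 212 of 468, CHLH alone 104, and the median was 7.5 per member against 2 over all genes. With 1 minimum of 7.31 RPM in every list, the mean was 6.97 to 9.24 per member, against 3.07 to 3.54. Joining neighbours whose starts and whose ends were at most 50 nt apart left a mean of 3.53 per member in wild type at 22 °C, against 1.7 over all genes. In that list 57.5% (52.9 to 62.0) of member TIF-clusters spanned the coding sequence and 41.5% (36.9 to 46.1) started inside it, against 78.7% and 16.4% over all genes. Without CHLH, CHLP and CHLM, 13.7% (9.86 to 18.3) started inside. CHLM was counted there because its used starts lie about 104 nt inside the longest annotated coding span, and with its first annotated isoform 91.8% of its wild-type read pairs spanned the coding sequence.

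The most used 5′ end of the 35 members lay at a median of 80 nt from the start codon and was upstream of it in 34, all but CHLM. The shortest 5′-UTRs were those of HEMF1 and CRTISO with 23 nt and the longest that of PSY with 663 nt. The most used 3′ end lay at a median of 179 nt after the stop codon, from 79 nt at CHLI2 to 480 nt at CHLM. In 34 of 35 members the most used start lay inside the annotated gene, by a median of 105 nt, and in 34 the most used end did, by a median of 90 nt.

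Changes of the main 5′ end by 20 percentage points or more were seen at PORB in spt16-1 (27.0 points down), at CHLH in ssrp1-2 (21.8 points up) and at VDE in cold hen2-2, where 24 of 30 read pairs used the main start against 52 of 52 in hen2-2 at 22 °C and 80 of 95 in wild type at 22 °C. The share of all genes so called was 1.99% for spt16-1, 2.36% for ssrp1-2 and 3.47% for cold hen2-2 over hen2-2 at 22 °C. No member was called among 26 in cold wild type (2.46% of all genes), 29 in hen2-2 at 22 °C (2.49%) or 22 in hen2-2 over wild type at 4 °C (3.97%). At the 3′ end, GSA2 was called besides CHLM: 18 of 28 read pairs used its main end in cold hen2-2, against 51 of 51 in cold wild type and 63 of 70 in hen2-2 at 22 °C. The shares of all genes were 7.97% and 5.42% for these 2 comparisons. Cold wild type, spt16-1 and ssrp1-2 had no member called, against 3.08%, 2.25% and 2.54% of all genes.

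Short transcripts that end soon after the promoter were looked for as TIF-clusters under 350 nt that overlap the 40 nt on either side of the annotated start and end before the annotated end of the gene. The only member with one was CHLP, with 4 read pairs in hen2-2 at 4 °C, where 4.38% of all genes had one. The share of all genes was 0.138% in wild type at 4 °C, 3.87% in hen2-2 at 22 °C, 0.341% in spt16-1, 0.199% in ssrp1-2 and 0.467% in wild type at 22 °C. Because the used starts lie well inside the annotated ones, the most used start of each gene was also taken as the reference. PORC and PSY then had short TIF-clusters in hen2-2 at 22 °C, and CHLH and CHLP in hen2-2 at 4 °C, which is 2 of 34 and 2 of 33 members with transcripts (5.88% and 6.06%), against 14.1% and 16.1% of all genes. The other 4 lists had none at the members, against 0.777% of all genes in wild type at 4 °C, 1.39% in spt16-1, 0.740% in ssrp1-2 and 2.14% in wild type at 22 °C.

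PORC had the most. In hen2-2 at 22 °C, 2 short TIF-clusters of 119 and 140 nt held 7 and 14 read pairs, of 371 in all, and no other list had any at PORC. They start 44 and 40 nt before the start codon, in the same start group as the full-length PORC molecules, and end 74 and 99 nt after the first base of that codon, inside the first intron. The last 30 bases of the early end with more read pairs (chr1:907769-907798) and of the most used PORC end (chr1:909336-909365, 3′-UTR), plus strand, are shown with the last transcribed base in capitals to set the early end beside the usual one.
PORC early end: attagtaatgatttccatcttgttatgatT
PORC gene end: gcatttcaatagagttaatcatcgaattcG

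**Figure D5:**
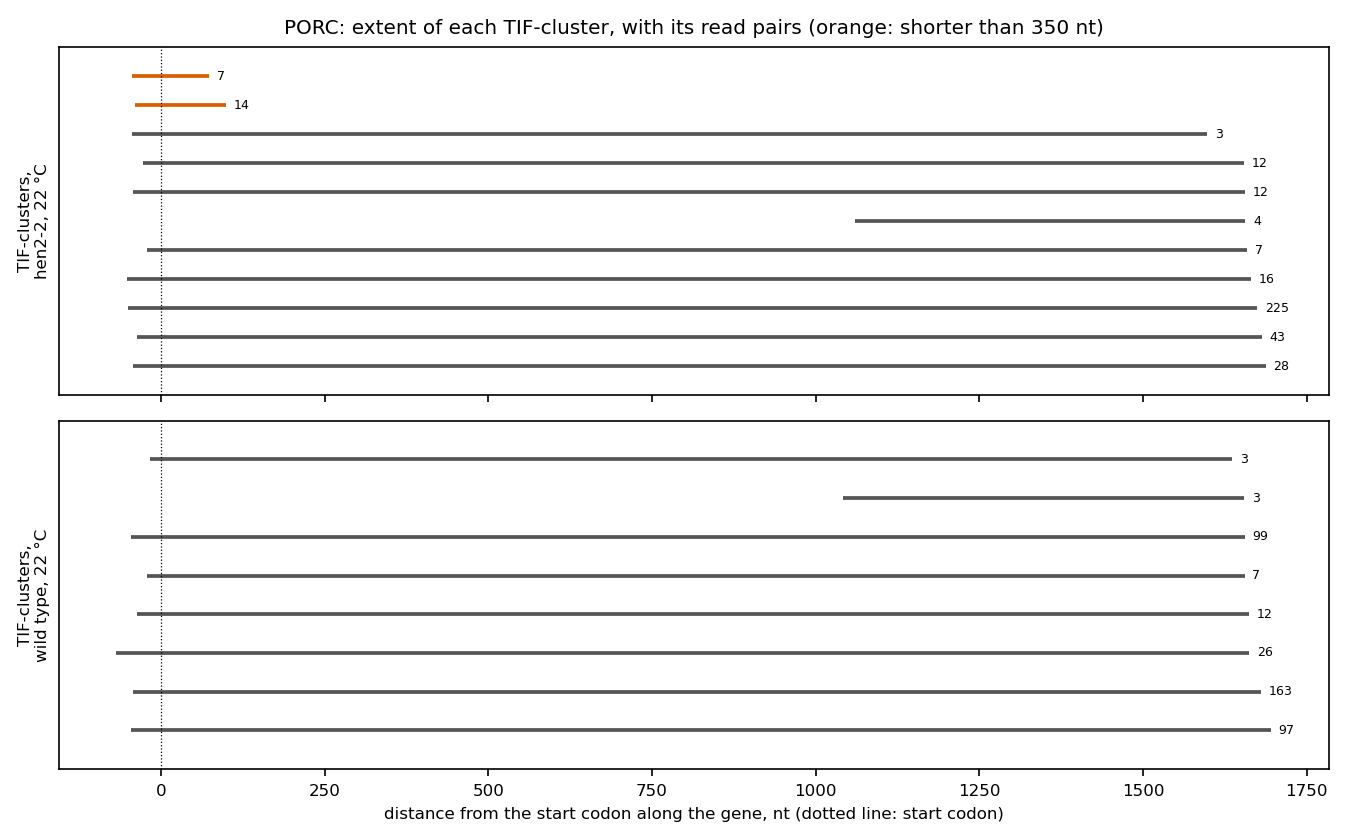
Extent of each PORC TIF-cluster along the gene, by distance from the start codon, in hen2-2 (top) and wild type (bottom) at 22 °C, with its read pairs beside it. The 2 short TIF-clusters of 7 and 14 read pairs appear in hen2-2 alone.

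Counting PORC and the other short transcripts, TIF-clusters of the members with a 3′ end before the stop codon numbered 6 in hen2-2 at 4 °C, 3 in wild type at 4 °C, 7 in hen2-2 at 22 °C, 1 in spt16-1, 2 in ssrp1-2 and 0 in wild type at 22 °C, with between 3 and 14 read pairs each. Those that start upstream of the coding sequence and end inside it made up 1.64%, 0.493%, 1.13%, 0%, 0.538% and 0% of member TIF-clusters. In the same order of lists, the shares over all coding genes were 5.42%, 2.18%, 4.73%, 2.82%, 2.24% and 2.94%, above the members in each list. At PORB, 2 early-ending TIF-clusters with 5 and 3 read pairs ended in introns in hen2-2 at 22 °C. CHLD had molecules that began at its promoter and ended in a coding exon, 2550 and 2658 nt after the start codon with 3 read pairs each in cold hen2-2, and 2558 nt after it with 5 read pairs in cold wild type. It had none in the 4 lists at 22 °C. At GUN4, 13 read pairs in hen2-2 at 22 °C began 271 nt into the coding span, and no other list had a start there. No member had a TIF-cluster on its opposite strand in any list. Over all coding genes, between 0.681% and 1.01% had one per list, so a count of 0 of 37 is near the background.

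As a wider frame, 36 other genes tied to these pathways were counted in the same way. In the cold, 3 of 22 compared were called higher and 1 lower in wild type, against 14.1% and 11.6% of all genes. In hen2-2, 2 of 19 were higher and 1 lower, against 9.38% and 17.5%. For hen2-2 over wild type at 22 °C the counts were 2 higher and 2 lower of 22, against 12.2% and 9.20%. At 4 °C they were 1 higher and 2 lower of 18, against 8.15% and 16.8%. For spt16-1 they were 3 higher and 0 lower of 23, against 14.0% and 8.05%. For ssrp1-2 they were 3 higher and 2 lower of 24, against 12.3% and 11.0%. Their median log2 ratios lay between -0.38 and 0.14.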

How the data were processed

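TIF-seq libraries from 14-day seedlings were pooled by the authors into 6 lists of 2 libraries each, and 6 TSS-seq samples were not analysed here. Per the study's methods, the authors trimmed reads and took molecular identifiers (cutadapt, UMI-tools), aligned them to TAIR10 with STAR 2.6.1c, kept unique alignments and removed duplicates. Read pairs with both ends within 20 nt were joined into TIF-clusters, and mispriming artefacts were removed. Because of a bias of TIF-seq starts towards gene 3′ ends, starts that overlapped no start in published TSS-seq data were also filtered out. Each deposited TIF-cluster carries a raw count of its read pairs, 3 at the least, so a gene without a TIF-cluster has no zero that can be bounded.

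A TIF-cluster was given to a coding gene on its strand when at least 50% of its length lay in the gene (RefSeq annotation of TAIR10.1). Counts were summed per gene and divided by the list total. Genes with at least 20 read pairs in the 2 lists and a TIF-cluster in both were compared, and 2-fold was called. Ends were joined within 50 nt, and a share that moved by 20 points was called, with at least 20 read pairs in each list. Values in every list were given for called members, for the 10 with the most read pairs and for those with called ends or short transcripts. Calculations used Python 3.11.15, pandas 2.3.3 and scipy 1.17.1, and were tested on simulated data. The members and lists were chosen with earlier results of these data known. Alternatives concerned the gene assignment, isoform class, minimum count, scaling and join distance.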

Additional observations from a re-analysis of the deposited data

Results flagged for a closer look

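Each member's log2 ratio was set beside that of the matching comparison (the 2 FACT mutants, hen2-2 at the 2 temperatures, and the cold in the 2 genotypes). In 4 cases the 95% counting intervals lay on opposite sides of 0, though that of CHLI1 at 4 °C began at 0.00 as rounded. None of these differences was tested. The share of all coding genes that meet the same rule is not given, so the 4 cannot be read against a background. Other members had ratios of opposite sign with an interval that included 0. PORB was -1.60 (-1.79 to -1.41) in spt16-1 over wild type and 0.82 (0.69 to 0.95) in ssrp1-2 over wild type. CHLP was 0.24 (0.18 to 0.30) in spt16-1 and -0.14 (-0.21 to -0.07) in ssrp1-2. LYCB was 0.59 (0.05 to 1.14) in hen2-2 over wild type at 22 °C and -1.66 (-2.80 to -0.67) at 4 °C, where hen2-2 had 10 read pairs. CHLI1 was -0.22 (-0.40 to -0.04) at 22 °C and 0.24 (0.00 to 0.47) at 4 °C.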

How the results depend on the processing

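No paired analysis was possible because each list pools its 2 libraries and carries no replicate number, and for the same reason no replicate could be left out. Of 85 values for 18 called log2 ratios under the alternatives, 0 changed sign and 77 stayed past 2-fold. The 85 leave out settings under which a called ratio had no value. These were PSY on whole coding sequences, and PSY and ZDS with at least 5 read pairs per TIF-cluster. With 1 minimum per list size, PSY and FC1 had no value in cold wild type. The setting of at least 50 read pairs compared is not among the 85 either. With whole coding sequences alone, ssrp1-2 over wild type had 1 member called in place of 2, since CHLH was then at -0.59. That call was lower, and 10.4% of all genes were called lower and 12.7% higher. For spt16-1, 2 members were called in place of 1 both with at least 5 read pairs per TIF-cluster and with 1 minimum per list size. Each time 1 was higher and 1 lower, against 15.3% and 8.82% of all genes, and then 14.2% and 9.41%. With at least 50 read pairs compared, 2 members in place of 5 were called in cold wild type. Both were lower, and 8.58% of all genes were called lower and 11.8% higher. Centred on the median gene, hen2-2 over wild type at 4 °C had 3 members higher and 1 lower, in place of 1 and 3. The centred shares of all genes were 11.2% and 12.8%. With at least 5 read pairs, 62% of member TIF-clusters spanned the coding sequence, against 57.5%. Isoforms per member were 7.97 with 1 minimum per list size and 3.53 after joining, against 13.8. Joining ends within 20 nt gave 7 members with a called 5′ end in place of 3. The share of all genes at that distance is not given, so this count has no background. In hen2-2 at 22 °C, 2 members had short transcripts at the most used start and 0 at the annotated start. The causes were not tested. Lists of different size with the same minimum of 3 read pairs hold different shares of rare molecules.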
